A study of Populus ussuriensis with 20 samples.

Results

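AINTEGUMENTA-like (AIL) genes encode transcription factors with a pair of AP2 DNA-binding domains. In Arabidopsis, AINTEGUMENTA keeps cells of growing organs competent to divide, and its PLETHORA relatives maintain the stem cells of the root tip. In poplar, AIL1 is known as a regulator of cell proliferation in the shoot apex that acts on D-type cyclins, and as a gene that takes part in adventitious root formation on stem cuttings. The 2 genes described here are poplar AIL1, Potri.002G114800.v3.0, and its duplicate, Potri.014G012200.v3.0, out of 39538 gene models in the deposited tables. They were chosen by name from a list of these 2 IDs, and the tables themselves pair no ID with a gene name or product.

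The lowest 0.5 cm of stem cuttings from in vitro plants of Populus ussuriensis, a poplar, was used for RNA sequencing. The wild-type groups (WT) and the PuHox52-OE groups (OE), which carry PuHox52 behind the 35S promoter, were each sampled at 6, 12, 24, 48 and 96 h after cutting. PuHox52 is a homeodomain-leucine zipper transcription factor, and the 35S promoter of cauliflower mosaic virus is active in most plant tissues. Each of the 10 groups had 2 libraries, each made from 40 pooled cuttings and described as a biological replicate. All cuttings of both genotypes stood on half-strength Murashige and Skoog medium under 16 h of light and 8 h of dark, and the labels name no other agent. The series text gives a plant age of 2 weeks and the growth protocol an age of 4 weeks. The number of transgenic lines behind the OE cuttings is not in the labels, and no uncut group is among them. The libraries held 10399262 to 27472303 counts each. In each of the 10 groups the replicates were further apart than sampling noise alone (a chi-square of 4.64 to 16.9 for each degree of freedom).

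In the deposited coordinates, AIL1 lies on chromosome 2 from 8642603 to 8647364 on the minus strand, with a gene model of 3501 bases. The duplicate lies on chromosome 14 from 1265438 to 1269003 on the plus strand, with a gene model of 2593 bases. No other gene model in the tables overlaps either of them, and the nearest neighbours are 10008 and 15488 bases away from AIL1 and 7725 and 8956 bases away from the duplicate. The genome build is not given in the sources used here. How reads that match both copies were assigned is not given either, so the split of reads between the duplicates is uncertain to that extent.

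Both genes were detected in all 20 libraries. AIL1 had 209 to 768 counts per library (median 414.5) and the duplicate 66 to 540 (median 246). Counting error alone, taken as the inverse square root of the count, was therefore 3.61 to 6.92% of the value for AIL1 and 4.30 to 12.3% for the duplicate. Levels of the genes relative to each other are given as the authors' FPKM (fragments scaled to a gene length and to library size). The lengths used for this are not given. In WT 6 h replicate 1, the log2 ratio of AIL1 to the duplicate was 2.14 in counts and 1.47 in FPKM. In WT 12 h replicate 2 it was 0.918 in counts and 0.300 in FPKM. Both shifts are larger than gene models of 3501 and 2593 bases would give. The shift also differed somewhat between libraries, and the reason was not tested. Levels compared between the genes therefore depend on unstated lengths and scaling. On the FPKM scale AIL1 lay between the 38.2 and 61.8 percentiles of the gene models with counts in a library, and the duplicate between 29.5 and 54.7. Both were thus genes of middle abundance in the stem base. In bulk tissue, fewer cells that express a gene and less RNA per cell cannot be told apart.

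The duplicates moved in opposite directions after cutting. AIL1 was highest at 6 h and fell, while the duplicate was lowest at 6 h and rose, in both genotypes. By 96 h, AIL1 had fallen by 1.12 (SE 0.157) in WT and by 1.17 (SE 0.149) in OE on the log2 scale. Over the same interval the duplicate had risen by 1.24 (SE 0.237) in WT and by 1.08 (SE 0.218) in OE.

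**Figure D1:**
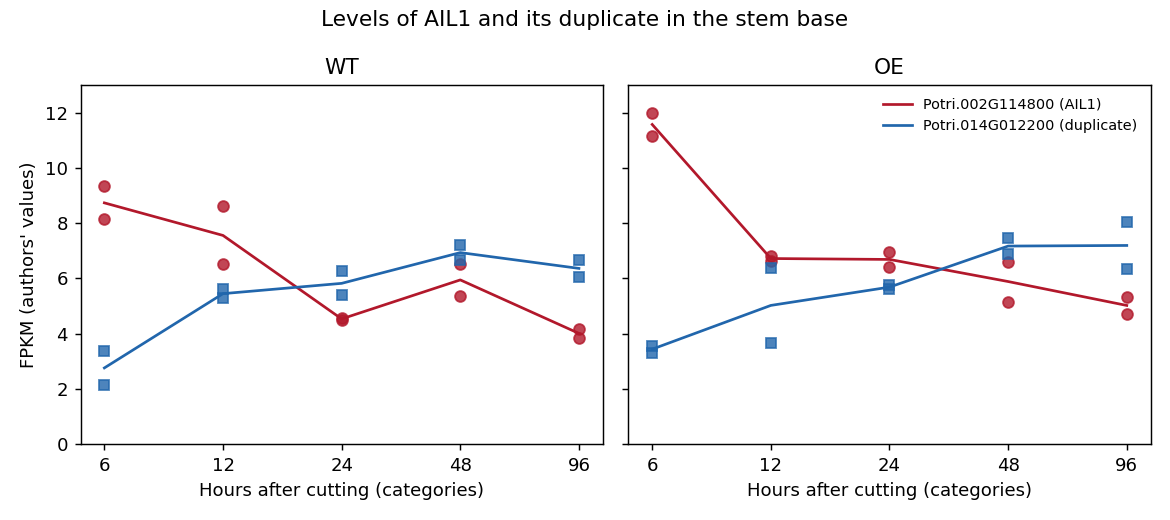
FPKM of AIL1 (circles) and its duplicate (squares) in each library, with WT on the left and OE on the right, against hours after cutting drawn as evenly spaced categories. Points are libraries and lines join the means of 2 libraries. The lines cross between 12 and 24 h in WT and between 24 and 48 h in OE.

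In WT, AIL1 stood at 9.33 and 8.13 FPKM at 6 h. It was at 8.60 and 6.51 FPKM at 12 h, at 4.56 and 4.51 at 24 h, at 5.36 and 6.53 at 48 h, and at 4.16 and 3.86 at 96 h. The 6 and 12 h libraries overlapped, and all libraries at 24 and 96 h lay below them. In OE, AIL1 stood at 11.2 and 12.0 FPKM at 6 h, at 6.82 and 6.62 at 12 h, and at 6.96 and 6.41 at 24 h. It was at 5.16 and 6.61 FPKM at 48 h and at 4.71 and 5.33 at 96 h. Every later OE library lay below both OE libraries at 6 h, those at 12 h included. With 2 libraries a group, such separation is a weak criterion in either genotype. The share of all genes that meet it was not counted.

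The duplicate stood at 3.37 and 2.15 FPKM in WT at 6 h. It was at 5.61 and 5.29 FPKM at 12 h, at 5.39 and 6.25 at 24 h, at 6.66 and 7.20 at 48 h, and at 6.05 and 6.67 at 96 h. Every later WT library lay above both WT libraries at 6 h. Here and in OE this is a weak criterion with 2 libraries a group, and the share of all genes that meet it was not counted. In OE, the duplicate stood at 3.57 and 3.31 FPKM at 6 h, at 3.67 and 6.37 at 12 h, and at 5.62 and 5.75 at 24 h. It was at 6.90 and 7.44 FPKM at 48 h and at 6.33 and 8.05 at 96 h. All later OE libraries lay above those at 6 h here too, although 1 library at 12 h was only slightly higher, and the 12 h pair was the least alike of the OE pairs.

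Ordered by mean FPKM, AIL1 went from OE at 6 h (11.6) through WT at 6 h (8.73), WT at 12 h (7.56), OE at 12 h (6.72), OE at 24 h (6.69), WT at 48 h (5.95), OE at 48 h (5.89), OE at 96 h (5.02) and WT at 24 h (4.54) to WT at 96 h (4.01). Of the 9 neighbouring pairs in this order, 6 had overlapping libraries. The 3 that did not were OE and WT at 6 h, OE at 96 h and WT at 24 h, and WT at 24 h and 96 h. For the duplicate the order ran from OE at 96 h (7.19), OE at 48 h (7.17), WT at 48 h (6.93), WT at 96 h (6.36), WT at 24 h (5.82), OE at 24 h (5.69), WT at 12 h (5.45) and OE at 12 h (5.02) to OE at 6 h (3.44) and WT at 6 h (2.76). Here 7 neighbouring pairs overlapped, and the 2 that did not were OE at 24 h and WT at 12 h, and OE at 12 h and OE at 6 h. For both genes the pairs were set by these same means and mix genotype with time. Their overlap is therefore a description and no test of either.

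The time course was tested on counts with edgeR's quasi-likelihood test over 26391 gene models, with Benjamini-Hochberg adjustment, and "called" means an adjusted p under 0.05. Both genes changed over the 5 times in both genotypes. The adjusted p for any change was 3.43e-05 in WT and 3.48e-05 in OE for AIL1, and 0.00097 in WT and 0.00271 in OE for the duplicate. A change over time was common in these libraries, as 69.3% of the genes tested were called in WT and 63.5% in OE. The 4 comparisons with 6 h in a genotype share the same 2 libraries at 6 h.

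In WT, AIL1 did not differ detectably between 12 h and 6 h (log2 fold change -0.20, SE 0.149, 95% interval -0.51 to 0.12, adjusted p 0.318), a comparison in which 18.4% of all genes were called lower. That value was -0.403 (adjusted p 0.071) without WT 12 h replicate 1 and -0.00114 (adjusted p 1) without WT 12 h replicate 2. It fell by 0.95 (SE 0.158) at 24 h, by 0.54 (SE 0.153) at 48 h and by 1.12 (SE 0.157) at 96 h, which at 96 h is 2.17-fold. The adjusted p were 0.000124, 0.00723 and 1.37e-05, and 25.3%, 27.3% and 30.2% of all genes were called lower in these comparisons. At 96 h, 14.4% of all genes tested had a lower log2 fold change than AIL1. The fall at 48 h was not called without WT 6 h replicate 1 (log2 fold change -0.442, adjusted p 0.0579) or WT 48 h replicate 1 (-0.401, adjusted p 0.0772).

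In OE, AIL1 fell by 0.77 (SE 0.147) at 12 h, by 0.80 (SE 0.149) at 24 h, by 0.97 (SE 0.149) at 48 h and by 1.17 (SE 0.149) at 96 h, relative to 6 h. The adjusted p were 0.000782, 0.000428, 4.73e-05 and 5.46e-06. Of all genes, 19% were called lower at 12 h, 23.1% at 24 h, 27.1% at 48 h and 28.9% at 96 h. AIL1 thus passed the test at all 4 later times in OE and at 3 of 4 in WT. The test of whether the genotypes differed in their time course is given below with the other genotype comparisons.

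The duplicate rose early in WT. It was 2.08-fold higher at 12 h than at 6 h (log2 fold change 1.06, SE 0.234), 2.15-fold at 24 h (1.10, SE 0.241), 2.61-fold at 48 h (1.39, SE 0.236) and 2.37-fold at 96 h (1.24, SE 0.237). The adjusted p were 0.00245, 0.00128, 0.000118 and 0.00027, against 17.6%, 24.1%, 28.5% and 30.2% of all genes called higher. The call at 12 h rested on the lower of the 6 h libraries, as the log2 fold change was 0.762 (adjusted p 0.0609) without WT 6 h replicate 2.

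In OE, the duplicate had a log2 fold change of 0.54 at 12 h (SE 0.222, adjusted p 0.0664), which was not called. It rose by 0.70 (SE 0.225) at 24 h, 1.05 (SE 0.221) at 48 h and 1.08 (SE 0.218) at 96 h, with adjusted p of 0.019, 0.000752 and 0.000487. In OE, 17.8% of genes were called higher at 12 h, 21.8% at 24 h, 28% at 48 h and 31.1% at 96 h. The value at 12 h depended on which OE library of that time was used. It was 0.896 and called (adjusted p 0.00334) without OE 12 h replicate 1, and 0.107 (adjusted p 0.754) without OE 12 h replicate 2. The call at 24 h was lost without any of the 4 libraries it compares (log2 fold change 0.664 to 0.783, adjusted p 0.0556 to 0.0763).

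**Figure D2:**
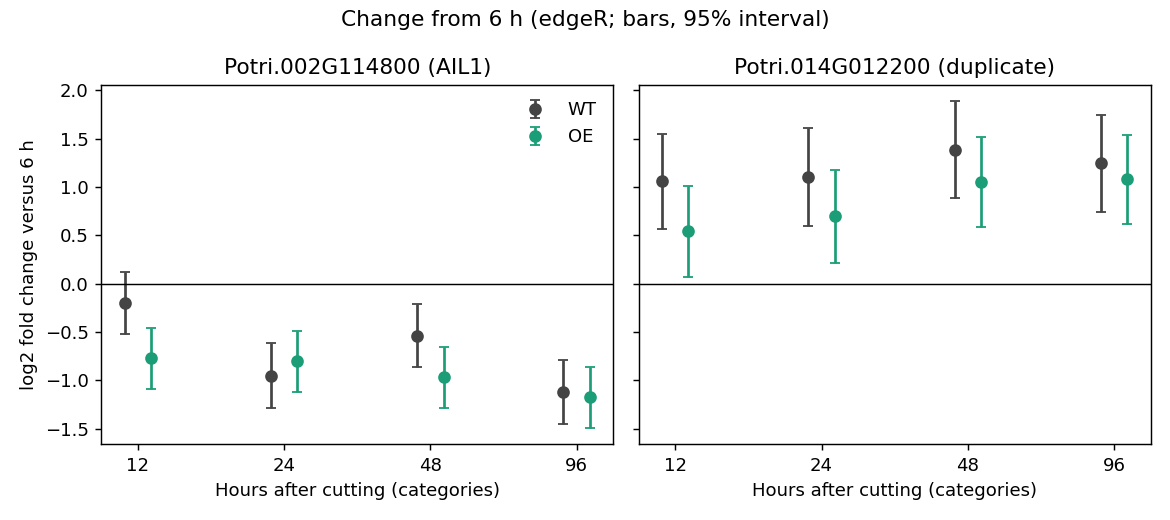
Log2 fold change from 6 h for AIL1 (left) and its duplicate (right) in WT and OE, against hours after cutting drawn as categories. Points are edgeR estimates from 2 libraries a group and bars their 95% intervals, unadjusted. AIL1 lies below 0 and the duplicate above 0 at every later time, and the WT interval of AIL1 at 12 h includes 0.

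Step by step, AIL1 moved in WT only between some neighbouring times. It fell by 0.75 (SE 0.154, adjusted p 0.00537) from 12 to 24 h, where 7.35% of genes were called lower, and by 0.58 (SE 0.157, adjusted p 0.019) from 48 to 96 h, where 9.04% were. Between these falls it had a log2 fold change of 0.41 from 24 to 48 h (SE 0.158, adjusted p 0.132), and of 0.213 without WT 48 h replicate 2. All 48 h libraries lay above both 24 h libraries, again a weak criterion with 2 libraries a group. The first fall was not called without WT 12 h replicate 1 (-0.519, adjusted p 0.105) or WT 24 h replicate 2 (-0.756, adjusted p 0.0563). The second was not called without WT 48 h replicate 2 (-0.417, adjusted p 0.202), WT 96 h replicate 1 (-0.654, adjusted p 0.0582) or WT 96 h replicate 2 (-0.521, adjusted p 0.135).

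In OE, the steps of AIL1 after 12 h were -0.03, -0.17 and -0.21 on the log2 scale (SE 0.150, 0.152 and 0.151), and none was called. The steps of the duplicate after 12 h ranged from -0.14 to 0.36, and none of the 6 in either genotype was called, with adjusted p from 0.34 to 0.959 by edgeR. Its largest steps were those from 24 to 48 h, 0.28 (SE 0.214) in WT and 0.36 (SE 0.211) in OE. For comparison, 2.58% of all genes were called between 12 and 24 h in OE, 6.61% between 24 and 48 h and 7.18% between 48 and 96 h. In WT, 5.58% were called between 24 and 48 h. The hour of day of cutting is not in the labels. If all cuttings were made at the same hour, samples at 24, 48 and 96 h share an hour of the light cycle. Those at 6 and 12 h then do not share it. Time since cutting and hour of day therefore cannot be told apart in the comparisons with 6 h or with 12 h.

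With these opposite courses the makeup of the pair shifted from AIL1 toward the duplicate. At 6 h AIL1 held 73.5 and 79.1% of the summed FPKM of the pair in WT and 75.8 and 78.4% in OE. At 12 h its share was 60.5 and 55.2% in WT and 65.0 and 51.0% in OE. At 24 h the libraries of the genotypes did not overlap, with 45.8 and 41.9% in WT and 55.3 and 52.7% in OE. This is a weak criterion with 2 libraries a group. The share overlapped between the genotypes at all other times, and its difference at 24 h was not tested. At 48 h the share was 44.6 and 47.5% in WT and 42.8 and 47.0% in OE, and at 96 h it was 40.7 and 36.7% in WT and 42.7 and 39.8% in OE. In FPKM, AIL1 was the higher of the pair in 8 of 8 libraries at 6 and 12 h, and the duplicate in 8 of 8 libraries at 48 and 96 h. At 24 h AIL1 was higher in FPKM in both OE libraries and in neither WT library. This rank rests on the unstated lengths behind the FPKM. In counts, not corrected for length, AIL1 was still the higher at 48 h, with a mean log2 ratio of 0.418 in WT and 0.353 in OE. At 96 h that mean was 0.14 in OE and -0.02 in WT.

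**Figure D3:**
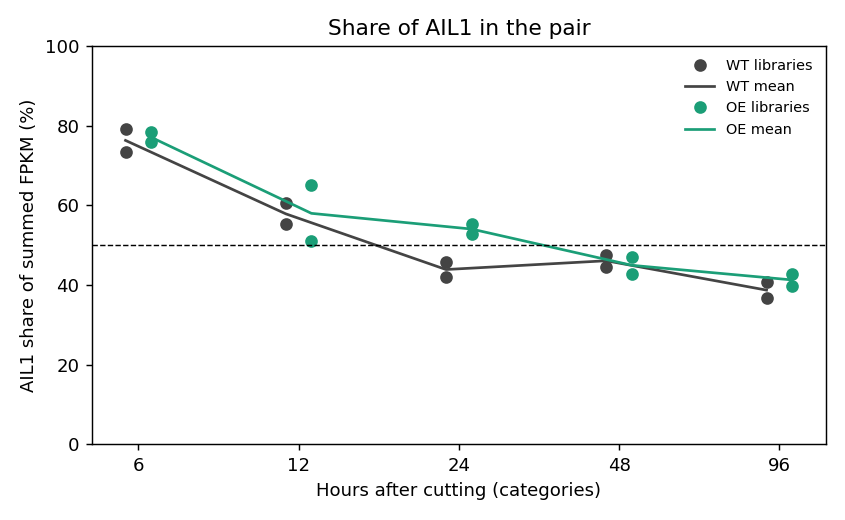
Share of AIL1 in the summed FPKM of AIL1 and its duplicate, in percent, by library (points) and as the mean of 2 libraries (lines), against hours after cutting drawn as categories. The dashed line marks equal FPKM of the genes. The share falls from 73.5 to 79.1% at 6 h to 36.7 to 42.7% at 96 h.

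The log2 ratio of AIL1 counts to those of the duplicate was used to test this, since depth and scaling cancel within a library. It was 2.36 ± 0.309 in WT and 2.39 ± 0.163 in OE at 6 h (SD, n = 2 each), and -0.02 ± 0.19 and 0.14 ± 0.128 at 96 h. These ratios are not corrected for length, so only their changes are read. In an exact permutation test over all 113400 arrangements of the 10 libraries of a genotype, the ratio differed between times in WT (F = 40, p = 0.00212) and in OE (F = 17.9, p = 0.0116). The smallest p this test can give is 0.00106. Adjusted over the 6 tests made on the pair, the exact p were 0.0127 and 0.0349. Where a library is left out below, only the p of that test was redone, and those of the other tests were kept from the full data. In WT the adjusted exact p stayed under 0.05 with any of the 10 libraries left out (0.0127 to 0.0348). In OE it did so in 3 of 10 cases, and in the other 7 it was above (up to 0.111, without OE 96 h replicate 2), with F from 8.93 without OE 6 h replicate 2 to 79.4 without OE 12 h replicate 2.

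The summed FPKM of the pair gives the joint level of both genes, weighted by the unstated lengths behind the FPKM. It ranged from 9.95 to 14.2 in WT libraries (median 11.3) and from 10.5 to 15.3 in OE libraries (median 12.8). The WT groups stood at 11.5 ± 1.72, 13 ± 1.71, 10.4 ± 0.576, 12.9 ± 1.21 and 10.4 ± 0.223 at the 5 times in order (SD, n = 2 each). The OE groups stood at 15 ± 0.381, 11.7 ± 1.77, 12.4 ± 0.298, 13.1 ± 1.41 and 12.2 ± 1.65. A difference between times was not detected in an exact permutation test in WT (F = 2.3, p = 0.221) or OE (F = 1.74, p = 0.306). This sum was examined after the opposite courses had been seen.

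The main comparison of the series is OE against WT, and neither gene was called in it. Averaged over the 5 times, AIL1 had a log2 fold change of 0.23 (SE 0.068, 95% interval 0.09 to 0.38), which is 1.17-fold. Its unadjusted p was 0.00369 and its adjusted p 0.128 by edgeR's quasi-likelihood test. The duplicate had 0.09 (SE 0.0975, 95% interval -0.11 to 0.30, adjusted p 0.804). Among all genes, 1.16% were called in the average, and 91.0% had a lower log2 fold change than AIL1.

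At single times, AIL1 in OE lay above WT at 6, 24 and 96 h, with no overlap of libraries, but none of these differences was called. With 2 libraries a group, lack of overlap is a weak criterion, and the share of all genes that meet it was not counted. At 6 h its libraries held 11.2 and 12.0 FPKM in OE against 9.33 and 8.13 in WT, a log2 fold change of 0.41 (SE 0.149, adjusted p 0.236). At 24 h they held 6.96 and 6.41 FPKM against 4.56 and 4.51, the largest of these differences at 0.56 (SE 0.157, 95% interval 0.23 to 0.90, unadjusted p 0.00251, adjusted p 0.138). At 96 h they held 4.71 and 5.33 FPKM against 4.16 and 3.86, a log2 fold change of 0.36 (SE 0.155, adjusted p 0.288). At 12 and 48 h the libraries of the genotypes overlapped, with log2 fold changes of -0.16 (SE 0.146, adjusted p 0.745) and -0.02 (SE 0.152, adjusted p 1).

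The duplicate overlapped between OE and WT at all 5 times. Its log2 fold changes were 0.38 (SE 0.249) at 6 h, -0.13 (SE 0.207) at 12 h, -0.03 (SE 0.217) at 24 h, 0.05 (SE 0.208) at 48 h and 0.21 (SE 0.206) at 96 h. The adjusted p were 0.579 to 1 by edgeR. Single libraries decided these values. At 6 h the log2 fold change was 0.0765 when WT 6 h replicate 2 was left out, but 0.714 when the other WT library of that time was, and at 96 h it was 0.00405 without OE 96 h replicate 2 and 0.361 without OE 96 h replicate 1. The average of the duplicate was 0.0077 without OE 12 h replicate 2 and 0.166 without OE 12 h replicate 1. None of these was called. Of all genes, 1.09% were called at 6 h, 0.398% at 12 h, 0.739% at 24 h, 0.0455% at 48 h and 1.53% at 96 h. The 95% interval of the duplicate reached from -0.49 to 0.43 at 24 h, so a p that misses the threshold does not show equal levels.

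**Figure D4:**
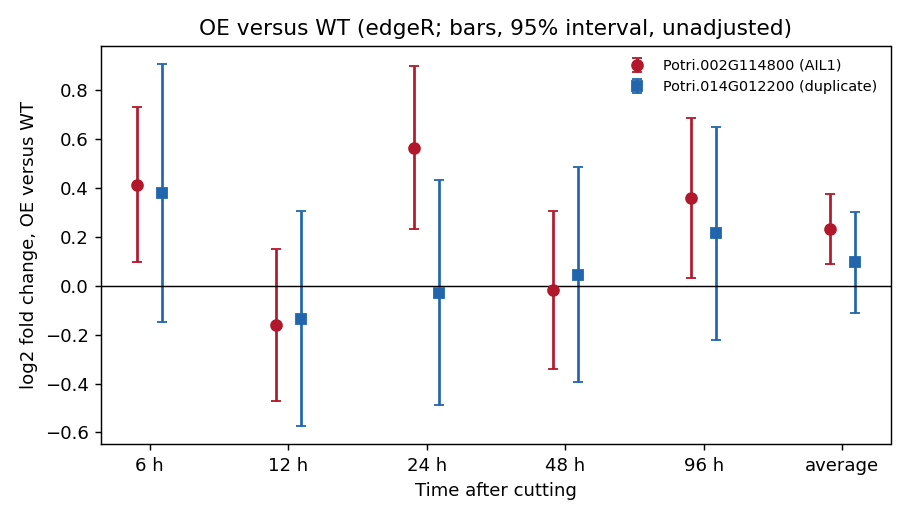
Log2 fold change of OE versus WT for AIL1 (circles) and its duplicate (squares) at each time after cutting and averaged over the times. Bars are 95% intervals of the edgeR estimates, unadjusted for the number of genes. The intervals of AIL1 lie above 0 at 6, 24 and 96 h and in the average, and those of the duplicate include 0 throughout.

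The same fit tested whether the gap between OE and WT was the same at all times. For AIL1 the adjusted p was 0.205 (F = 4.11, unadjusted p 0.0177), and for the duplicate 0.804 (F = 0.803). Among all genes, 1.65% were called in this test. The low level of AIL1 in WT at 24 h, beside the higher one in OE, therefore did not pass the test of a difference between the genotypes' time courses. The log2 ratio of the pair differed by 0.579 between OE and WT at 24 h and by -0.0643 to 0.157 at the other times. Averaged over the times, it was higher in OE by 0.146, and an exact two-sided permutation test over 7776 exchanges within times gave p = 0.218 (adjusted 0.265). The summed FPKM was higher in OE by 0.15 on the log2 scale (exact permutation p = 0.0705, adjusted 0.141). All OE libraries lay above WT at 6, 24 and 96 h, a weak criterion with 2 libraries a group, and the genotypes overlapped at 12 and 48 h.

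Among the 21455 other genes whose log2 CPM averaged 1 or more, those most like AIL1 over the 20 libraries were Potri.001G003800.v3.0 (Pearson's r 0.931), Potri.002G037500.v3.0 (0.923) and Potri.011G139700.v3.0 (0.921). CPM are counts brought to a common library size. Potri.001G003800.v3.0, the closest, went from 144 ± 13.9 CPM in WT at 6 h to 142 ± 11.4 at 12 h, 108 ± 1.15 at 24 h, 102 ± 9.89 at 48 h and 87 ± 7.02 at 96 h. In OE it went from 186 ± 25.1 CPM at 6 h to 116 ± 1.51 at 24 h and 110 ± 8.02 at 96 h, so unlike AIL1 its mean in WT was not lower at 24 h than at 48 h. Potri.002G037500.v3.0 went from 44.4 ± 3.61 CPM in WT at 6 h to 22.0 ± 1.94 at 24 h, 28.8 ± 2.05 at 48 h and 23.1 ± 1.56 at 96 h (SD, n = 2 each). In OE it stood at 31.8 ± 3.48 CPM at 24 h. The closest matches of the duplicate were Potri.005G186800.v3.0 (0.966), Potri.002G004900.v3.0 (0.954) and Potri.018G019100.v3.0 (0.951). Potri.005G186800.v3.0 rose from 2.48 ± 0.636 CPM at 6 h to 8.05 ± 0.374 at 96 h in WT and from 3.82 ± 0.506 to 7.31 ± 1.5 in OE.

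The duplicate had more genes that followed it closely. For AIL1, 45 genes had an r above 0.9 and 53 one below -0.9, while for the duplicate these were 257 and 188. Between AIL1 and the duplicate themselves, r was -0.633. These correlations are a description over 20 libraries, and genes of a library share its time, its genotype and its depth.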

How the data were processed

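The 20 libraries are those of the opening. Per the file headers, the authors' tables list 39538 gene models with counts, FPKM and normalized values. The submitters' processing notes name TopHat2 2.1.1 and HTSeq 0.6.0 without a role. No build, annotation or strandedness of counting is given in the sources used here. The deposited counts were whole numbers and were used for all edgeR tests. The deposited FPKM served for levels and was not tested gene by gene. The deposited normalized signal, divided by its library factor, was up to 1 below the count of either gene, so counts may have been rounded up.

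R 4.3.3 and edgeR 4.0.16 were used with filterByExpr defaults, TMM scaling and 1 group-means model over all libraries, with 10 residual degrees of freedom. Benjamini-Hochberg adjustment ran over all 26391 gene models tested. SE is the size of the log2 fold change over the square root of F. DESeq2 1.42.0, other scaling, filters and subsets were alternatives. Log2 ratios used counts plus 0.5. The edgeR and permutation code was tested on simulated data. Genes named as most alike were the 3 with the highest Pearson's r (log2 CPM, prior count 2). Replicate numbers follow accession order and pair nothing. The genes and tests were chosen with earlier results of these data known. Lists of relatives, cyclins and other cell division genes, and markers of stem cell types, were planned from product names. They were not formed, because the files used here carry no product names, and the tissue label and PuHox52 itself could not be checked. Sequences were not used here.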

Additional observations from a re-analysis of the deposited data

How the results depend on the processing

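With median-of-ratios size factors, DESeq2, no filter, the libraries of 1 time or 1 genotype alone, the additive model, or pseudocounts of 1 and 5 in the ratio, each result for AIL1, the duplicate and their ratio that could be fitted kept its direction and its side of the threshold in 187 of 188 cases. The exception was the duplicate in OE at 12 h versus 6 h, which was called without the filter (log2 fold change 0.567, adjusted p 0.0403). The cause was not tested. No paired analysis was possible because the labels carry no replicate numbers.

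Leaving out 1 library at a time changed some calls or directions. For AIL1 the log2 fold changes then ranged from -0.709 to -0.401 (WT, 48 against 6 h), -0.947 to -0.519 (WT, 24 against 12 h), -0.726 to -0.417 (WT, 96 against 48 h), and, not called in any of them, -0.403 to -0.00114 (WT, 12 against 6 h), 0.213 to 0.522 (WT, 48 against 24 h), -0.106 to 0.0464, -0.385 to -0.022 and -0.395 to -0.0328 (the 3 steps of OE after 12 h), -0.355 to 0.0546 (OE against WT, 12 h) and -0.208 to 0.155 (OE against WT, 48 h). For the duplicate they ranged from 0.762 to 1.4 (WT, 12 against 6 h), 0.107 to 0.896 (OE, 12 against 6 h), 0.664 to 0.783 (OE, 24 against 6 h), and, not called in any of them, -0.0766 to 0.146 (WT, 24 against 12 h), -0.199 to 0.59 (OE, 24 against 12 h), -0.185 to 0.172 (OE, 96 against 48 h), 0.0077 to 0.166 (OE against WT, average) and 0.0765 to 0.714, -0.573 to 0.216, -0.13 to 0.0787, -0.0202 to 0.117 and 0.00405 to 0.361 (OE against WT at 6, 12, 24, 48 and 96 h). For AIL1, OE against WT ranged from 0.19 to 0.27 in the average. At single times it ranged from 0.315 to 0.514 (6 h), 0.487 to 0.62 (24 h) and 0.251 to 0.428 (96 h). None of these comparisons was called with all libraries. A group left with 1 library is assumed to vary like the others. Over the times, F of the ratio ranged from 30 to 41.9 in WT and from 8.93 to 79.4 in OE (exact p up to 0.037, unadjusted), and F of the summed FPKM from 1.53 to 3.64 and from 0.772 to 3.13. The ratio between genotypes ranged from 0.062 to 0.23 (exact p 0.0478 without OE 12 h replicate 2), and the log2 summed FPKM, chosen after seeing the data, from 0.119 to 0.181 (exact p 0.0193 to 0.205, under 0.05 in 5 of 20).

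The counts of all genes called moved more. They are for either direction, whereas some percentages above are for genes called higher or lower alone. With all libraries, 9492 genes were called in WT and 9715 in OE for 12 against 6 h. In WT, 3660 were called from 12 to 24 h and 4211 from 48 to 96 h. For OE against WT in the average, 307 genes became 522 without the filter, 516 with DESeq2, 122 with the additive model and 160 to 427 with 1 library left out. At 6 h, 287 became 508 with DESeq2, 24 with that time alone and 28 to 332. At 12 h, 105 became 390 without the filter, 398 with DESeq2, 1 alone and 13 to 397. At 24 h, 195 became 377, 378 with DESeq2 and 18 to 222. At 48 h, 12 became 32, 43 with DESeq2 and 0 to 14. At 96 h, 403 became 658, 606 with DESeq2, 762 alone and 23 to 498. For the change of the difference over the times, 436 became 1115, 1327 with DESeq2 and 152 to 658. With 1 genotype alone, WT 48 against 24 h had 2421 genes in place of 1473, and OE 362, 701 and 1081 in place of 680, 1745 and 1896 at the 3 steps after 12 h. With 1 library left out, the steps ranged over 561 to 3793, 244 to 1899 and 1535 to 4467 in WT and 91 to 811, 85 to 2129 and 328 to 2156 in OE, and 12 against 6 h over 5841 to 9788 in WT and 6337 to 9676 in OE.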
